A study of Mus musculus with 12 samples.

Results

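H3K27ac, an acetylation of histone H3 found at promoters and enhancers in use, was examined at the 4 mouse genes for phosphoenolpyruvate carboxykinase (Pck1 and Pck2) and fructose bisphosphatase (Fbp1 and Fbp2), of 21883 protein-coding genes in all. The genes were chosen by enzyme function, with earlier results of these data known. Their regions were chosen by called peaks. Every peak of the 6 deposited lists within the gene body or 10 kb on each side was taken. This gave 8 regions at the 4 genes, of 79289 in the 6 lists joined. Presence, width and rank of these regions are therefore given as descriptions, without a test.

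The mark had been mapped by ChIP-seq in whole hearts of newborn mice at postnatal day 0. The 3 edKO hearts (numbered 1, 3 and 6) came from mice with a cardiomyocyte-specific deletion of Rxra and Rxrb, and the 3 WT hearts (numbered 1, 3 and 4) from wild-type mice. These 2 genes encode retinoid X receptors, which bind DNA as partners of PPARs and of other nuclear receptors. Chromatin came from cardiac nuclei, each heart being 1 biological replicate. Neither the Cre line nor the strain is given in the sources used here. As the deletion is described as cardiomyocyte-specific, the other cell types of an edKO heart are taken to keep both receptors. In whole hearts, fewer cells carrying a mark and less of the mark per cell cannot be told apart.

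Gluconeogenesis makes glucose from lactate, amino acids and glycerol by running glycolysis backwards, with separate enzymes at the steps that glycolysis cannot reverse. Phosphoenolpyruvate carboxykinase turns oxaloacetate into phosphoenolpyruvate, and fructose bisphosphatase removes a phosphate from fructose bisphosphate, opposite to phosphofructokinase. The full pathway runs in liver and kidney, and the heart is known as a consumer of glucose. The same enzymes have other uses outside those organs: Pck1 serves glyceroneogenesis in adipose tissue, where it is a known target of PPAR-gamma with RXR, Pck2 is the mitochondrial form, Fbp1 is the liver and kidney form and Fbp2 the muscle form.

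The lists held 47971, 48274 and 67706 distinct regions in edKO 1, 3 and 6, against 57976, 62882 and 66325 in WT 1, 3 and 4, so edKO 6 has the longest list and edKO 1 and 3 the shortest. Read depth per heart is unknown, so absence from a list means no call and does not show absence of the mark. Peaks also differed in breadth, with a median width of 1011, 665 and 550 bp in edKO 1, 3 and 6, against 766, 698 and 533 bp in WT 1, 3 and 4. The loci of the deleted genes themselves showed no called difference in marked length, with log2 differences of -0.06 for Rxra (SE 0.26, limma adjusted p = 0.968) and 0.00 for Rxrb (SE 0.10, limma adjusted p = 0.999), and a histone mark in whole hearts does not check the deletion. All 13 cardiomyocyte markers examined, among them Myh6, Tnnt2 and Nkx2-5, were marked in all 6 hearts, meaning any called length in the body or 10 kb on each side. The same held for all 6 fibroblast and all 6 endothelial markers.

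A called region touched the Pck2 promoter in all 6 hearts, as at 50.8% of the 17491 genes with a promoter, and the Fbp2 promoter in the 3 WT hearts alone, and none lay on the Pck1 or Fbp1 promoter in any heart, as at 42.4% of these genes. The 300 bases from 250 before to 50 after the start site are shown for Fbp2 (called in WT hearts alone), Pck2 (called throughout) and Pck1 (not called), from RefSeq on GRCm38.p6, the build of the mm10 lists. They stand at chr13:62858351-62858650 on the minus strand for Fbp2, chr14:55540016-55540315 on the plus strand for Pck2 and chr2:173152823-173153122 on the plus strand for Pck1. Capitals mark matches, on either strand, to the motifs that the next paragraph names.
Fbp2: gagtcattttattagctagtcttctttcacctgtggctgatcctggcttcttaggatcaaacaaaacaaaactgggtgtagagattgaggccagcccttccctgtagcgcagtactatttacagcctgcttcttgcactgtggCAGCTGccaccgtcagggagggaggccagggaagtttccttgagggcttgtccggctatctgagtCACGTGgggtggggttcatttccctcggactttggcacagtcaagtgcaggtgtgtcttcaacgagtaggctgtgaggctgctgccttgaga
Pck2: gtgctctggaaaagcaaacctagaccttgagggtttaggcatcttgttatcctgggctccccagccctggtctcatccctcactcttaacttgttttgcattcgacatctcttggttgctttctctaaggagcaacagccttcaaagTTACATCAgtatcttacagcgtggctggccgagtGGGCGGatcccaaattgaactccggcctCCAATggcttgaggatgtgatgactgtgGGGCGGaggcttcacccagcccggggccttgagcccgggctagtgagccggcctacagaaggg
Pck1: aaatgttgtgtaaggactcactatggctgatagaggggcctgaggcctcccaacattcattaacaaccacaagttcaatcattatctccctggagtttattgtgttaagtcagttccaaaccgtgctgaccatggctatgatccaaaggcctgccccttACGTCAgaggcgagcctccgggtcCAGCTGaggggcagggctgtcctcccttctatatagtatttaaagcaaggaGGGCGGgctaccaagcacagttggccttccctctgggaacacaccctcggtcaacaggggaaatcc

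The Fbp2 promoter held the E-box CACGTG, 42 bases before the start site, which stood in 7.84% of 21262 promoters, those of all start sites that the table gives for the 17491 genes. It also held CAGCTG, an E-box form bound by muscle bHLH factors, 107 bases before the start site (15.6% of promoters). The Pck1 promoter held ACGTCA, the core of a cyclic AMP response element, 91 bases before the start site (8.49% of promoters), and a CAGCTG at 67 bases. The Pck2 promoter held TGATGNAA, a core of the element bound by ATF4, on the minus strand 103 bases before the start site (3.6% of promoters), together with a CCAAT and 2 copies of GGGCGG. Of all promoters 38.2% held CCAAT and 46.2% held the GC box GGGCGG, the Pck1 and Fbp1 promoters holding 1 GC box each. The nuclear receptor hexamer AGGTCA (14.7% of promoters) matched none of the 4 promoters. Neither did its direct repeat with 1 base between the copies (0.047%), the form bound by PPAR with RXR, nor TATAAA (12.6%). A match is a run of letters and not a bound site, and no match says only that these letters are not in this window. None of the 4 promoters was rich in CpG: they held 6 CpGs each in Fbp2, Pck1 and Fbp1 and 9 in Pck2, where, with each start site counted by itself, the median was 3 for the 9099 promoters called in no heart and 22 for the 10564 called in all 6.

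At Fbp2, the muscle fructose bisphosphatase (gene body chr13:62836884-62858400, minus strand), H3K27ac was called at the start site in each WT heart and not in any edKO heart. The region ran from 62858124 to 62859166, reaching 766 bp upstream of the start site and 276 bp into the gene. Called length there was 0 bp in each of edKO 1, 3 and 6, against 626 bp in WT 1, 842 bp in WT 3 and 991 bp in WT 4. The groups do not overlap. Whether depth or list length has a part in the missing calls was not tested. The mean was 0 bp in edKO hearts and 820 ± 184 bp in WT hearts (SD, n = 3 each), and no fold is given against hearts in which nothing was called. The promoter itself was covered for 0 of 300 bases in each edKO heart, against 300 bases in WT 1 and WT 3 and 263 in WT 4.

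The Fbp2 region was of modest rank in every list that held it. By the authors' fold enrichment, used here only to rank regions within a list, its highest peak stood at percentile 36.7 of distinct regions in WT 1, 57.7 in WT 3 and 11.1 in WT 4, and its highest -log10 q was 7.09, 11.8 and 2.97 in these 3 hearts. WT 3 had 1 unbroken peak, while WT 1 and WT 4 each had 2 peaks with a gap between them. In WT 4 the higher peak lay upstream of the start site, and the peak over the start site stood at percentile 0.0. That start-site peak was near the authors' threshold, with a -log10 q of 1.41 where the smallest in that list was 1.30. With lists kept to a -log10 q of at least 5, the region was called in WT 1 and WT 3 and in no edKO heart, and the same held with all lists cut to 47971 regions, an alternative chosen after seeing the data.

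This pattern was rare among promoters. Of the 17491 genes, 19 had a call there in every WT heart but not in any edKO heart (0.109%), Fbp2 among them, and 0 had the opposite pattern. In each heart 52.3 to 55.7% of these genes had a called promoter, and 7420 of them had none in any heart. Fbp2 counts among the 19 through a WT 4 peak near the authors' threshold. Over regions of any position, 854 of 79289 had WT calls alone, in each of the 3 WT hearts (1.08%), and 57 had edKO calls alone, in each of the 3 edKO hearts (0.0719%), while 35.8% were called in all 6 hearts. The 854 are 2.45% of the 34876 regions that every WT heart had. Among the 12224 of these with a mean WT length under 1000 bp, 785 (6.42%) lacked an edKO call, and of the 9574 such narrow regions that every edKO heart had, 0.595% lacked a WT call. The regions at Fbp2 and Pck1 are both of this narrow kind, and they are 2 of the 8 regions at the 4 genes.

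**Figure D1:**
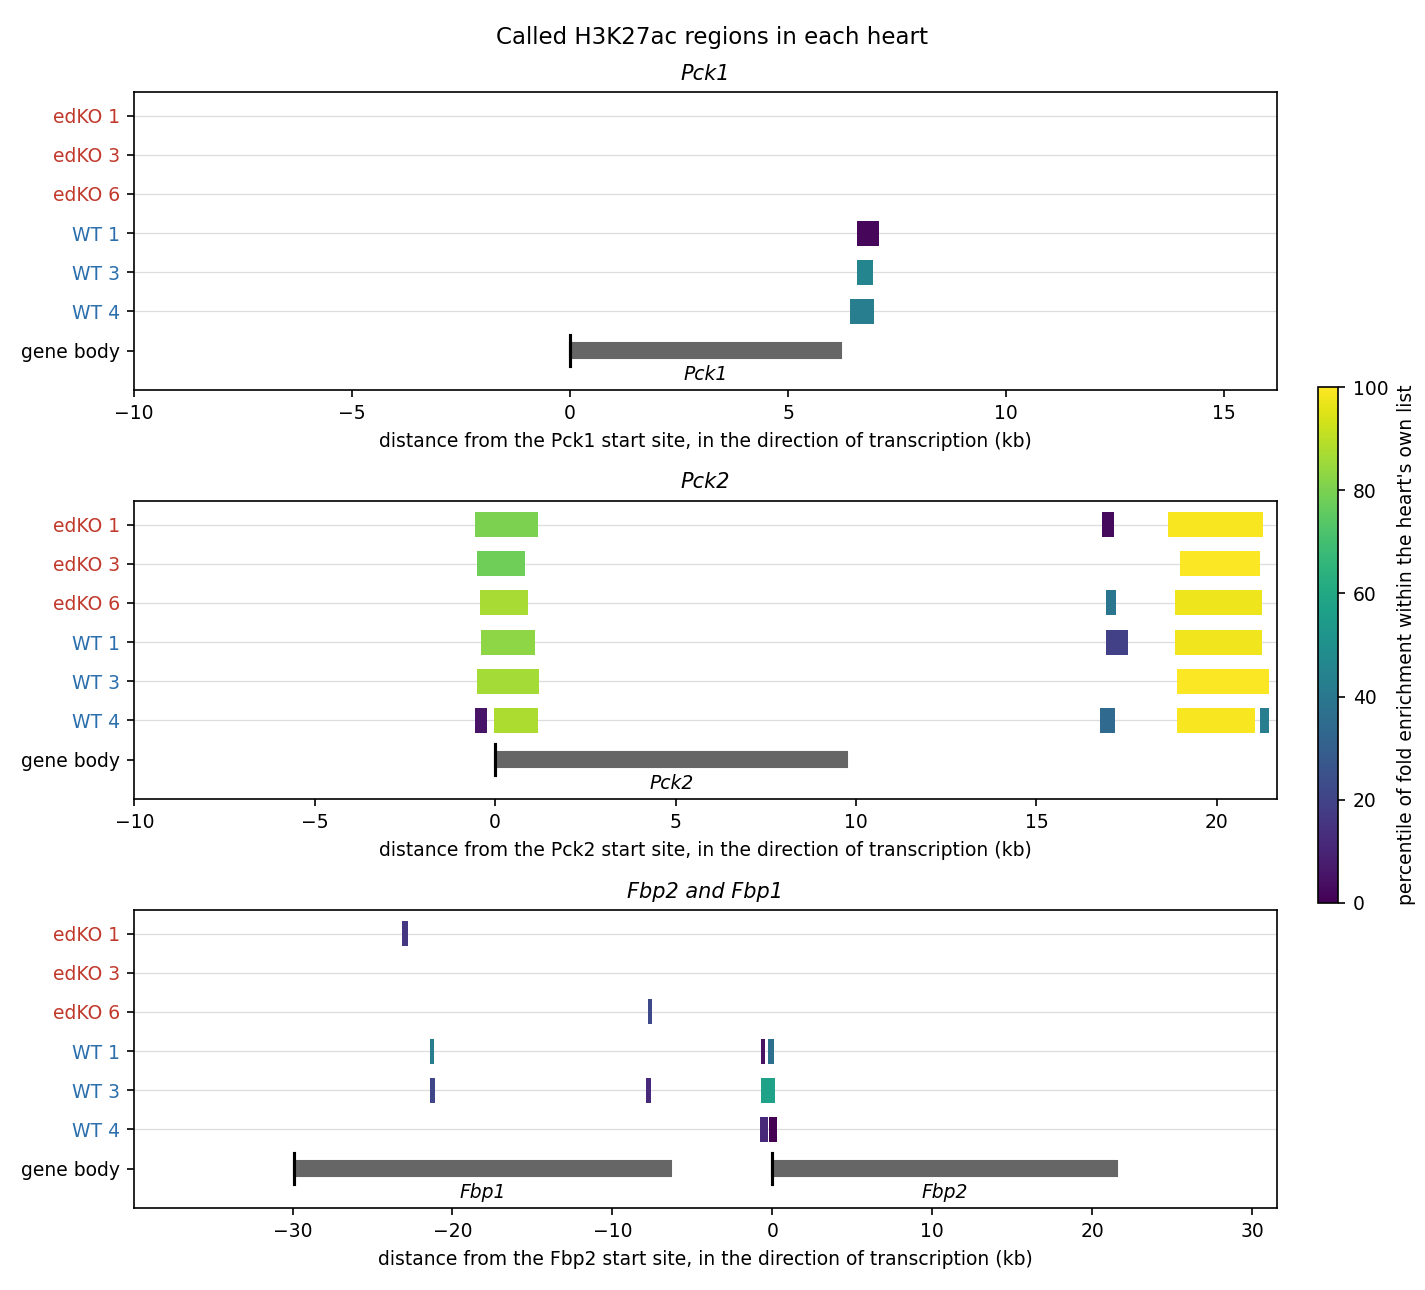
Called H3K27ac regions by distance from the start site (kb) in the 3 edKO hearts (upper rows) and the 3 WT hearts (lower rows), coloured by the percentile of fold enrichment within each heart's own list; grey bars are gene bodies and black ticks start sites. Regions at Pck1 and at the Fbp2 start site appear in the WT rows alone, while Pck2 carries its start-site region in all 6 rows.

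At Pck1, the cytosolic carboxykinase (gene body chr2:173153073-173159274, plus strand), the single region in the window was also called in WT hearts alone. It lay on the 3′ side, from 173159493 to 173160148, starting 219 bp beyond the end of the gene, and the nearest other protein-coding gene, Gm40011, was 21293 bp away. Called length was 0 bp in edKO 1, 3 and 6, against 489 bp in WT 1, 368 bp in WT 3 and 545 bp in WT 4. The mean was 0 bp in edKO hearts and 467 ± 90.5 bp in WT hearts (SD, n = 3 each), with no overlap between the groups. No peak touched the Pck1 body or its promoter in any heart.

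The Pck1 region ranked low as well. It stood at percentile 1.8 of fold enrichment in WT 1, 45.4 in WT 3 and 41.9 in WT 4, with a -log10 q of 2.74, 7.0 and 4.71. With a -log10 q of at least 5 it was called in WT 3 alone, and at equal list length in WT 3 and WT 4, with no edKO call in either case. The first region outside the window on that side lay 12049 bp beyond the end of the gene (173171323 to 173172216) and was called in 2 edKO and 2 WT hearts, and on the other side the first lay 17733 bp away and was called in 1 heart of each genotype. With a mean of 234 bp over the 6 hearts, the Pck1 locus was under the 500 bp needed to enter the fit over all loci.

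At Pck2, the mitochondrial carboxykinase (gene body chr14:55540263-55550020, plus strand), the start site was marked in both genotypes. The region from 55539711 to 55541485 was called in all 6 hearts, with 1751, 1322 and 1336 bp in edKO 1, 3 and 6, against 1502, 1711 and 1546 bp in WT 1, 3 and 4. The edKO hearts include both the longest and the shortest of these lengths, so the groups overlap. Its percentile of fold was 80.2, 78.0 and 87.0 in edKO 1, 3 and 6, against 82.9, 86.5 and 87.6 in WT 1, 3 and 4, above that of the regions at Pck1, Fbp1 and Fbp2. In WT 4 the region was split into 2 peaks, so that 105 of the 300 promoter bases were covered there, against 300 in the other 5 hearts.

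The rest of the Pck2 window belongs more closely to its neighbour Dcaf11, a gene for a ubiquitin ligase substrate receptor. A region from 55558899 to 55561717, 8879 bp beyond the end of Pck2 and overlapping Dcaf11, was called in all 6 hearts at percentiles of 97.6 to 99.3 in edKO hearts and 98.0 to 99.4 in WT hearts. A narrow region between the genes (55557033 to 55557793) was called in edKO 1 and 6 and in WT 1 and 4. Only the start-site region therefore lay nearer to Pck2 than to another protein-coding gene. The first region outside the window on that side, 19681 bp from Pck2, was called in 2 edKO and 3 WT hearts.

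At Fbp1, the liver and kidney fructose bisphosphatase (gene body chr13:62864753-62888298, minus strand), calls were scattered and overlapped between genotypes. The gene lies 6352 bp from Fbp2, and 3 narrow regions were assigned to it, all inside its body. The region from 62865930 to 62866313 was called in edKO 6 and WT 3, the one from 62879474 to 62879834 in WT 1 and WT 3, and the one from 62881209 to 62881587 in edKO 1 alone. The last 2 also lie within the long noncoding RNA gene Gm38679, and exons and introns were not used here. Summed over the 3 regions, called length was 379 bp in edKO 1, 0 bp in edKO 3 and 266 bp in edKO 6, against 292 bp in WT 1, 636 bp in WT 3 and 0 bp in WT 4. The mean was 215 ± 195 bp in edKO hearts and 309 ± 318 bp in WT hearts (SD, n = 3 each), a difference smaller than the spread within either group. No Fbp1 region ranked above percentile 42.3 of its list.

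**Figure D2:**
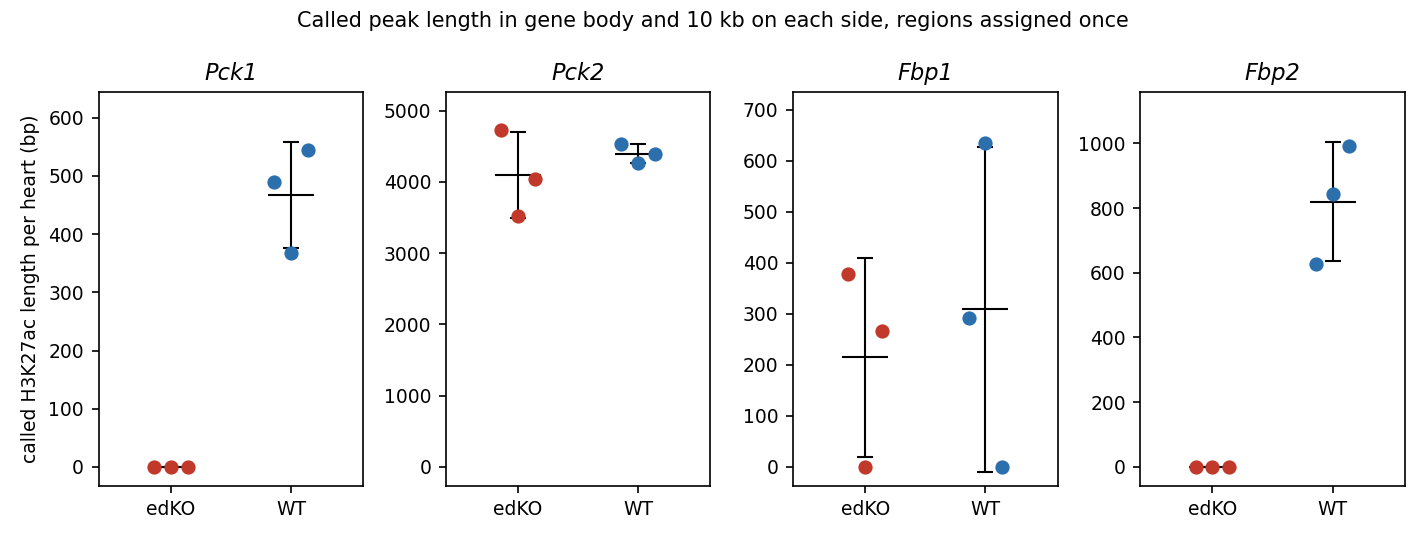
Called H3K27ac length (bp) at each gene per heart, with regions counted for 1 gene alone and in full; points are hearts, edKO left of WT, and bars give mean and SD (n = 3). The edKO hearts are at 0 bp for Pck1 and Fbp2, where WT hearts have 368 to 545 and 626 to 991 bp, while the groups overlap for Pck2 and Fbp1.

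**Figure D3:**
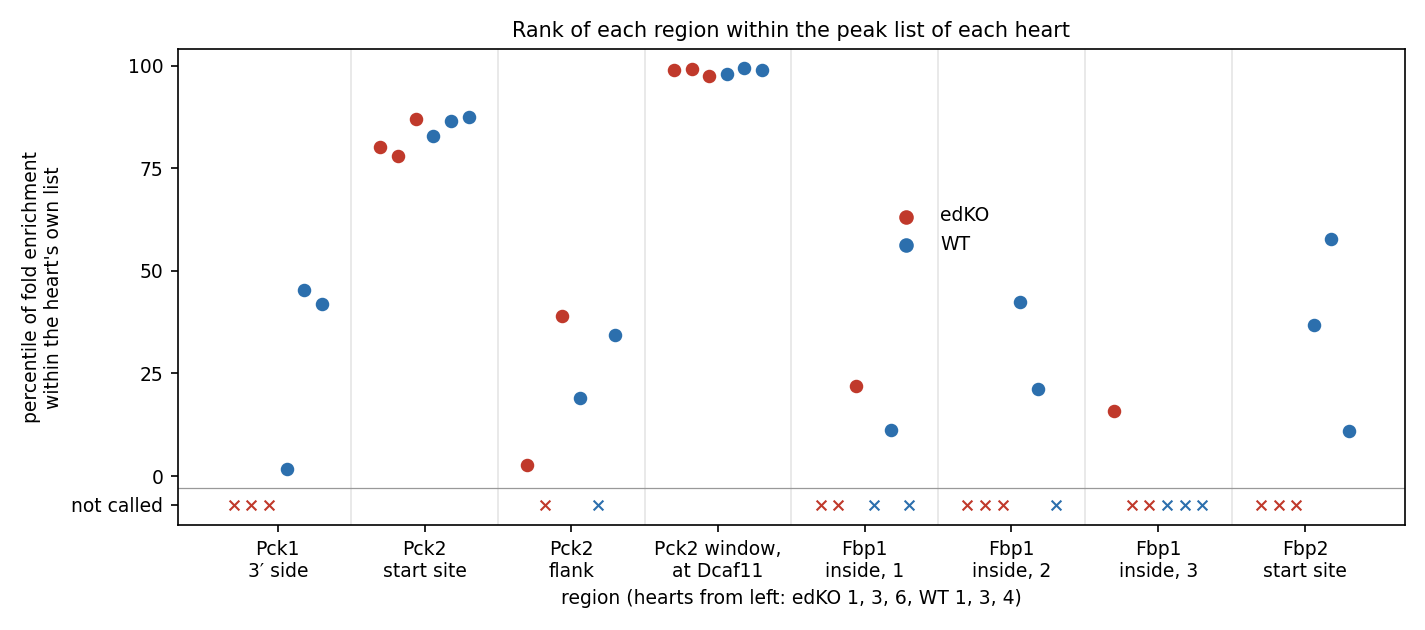
Percentile of fold enrichment within each heart's own list for the 8 regions (vertical axis, in percent), using the highest peak of a region, with crosses for hearts without a call; edKO hearts stand left of WT hearts. The Pck2 start-site region stays between 78.0 and 87.6 in all hearts, and the Pck1 and Fbp2 regions are at or below 57.7 in WT hearts.

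Marked length was then set against that of all genes. For each gene, called length in the body and 10 kb on each side was taken as log2(bp + 200), centred per heart, and edKO hearts were compared with WT hearts by limma over 14313 loci with a mean of at least 500 bp. Of the 4 genes, Pck2, Fbp1 and Fbp2 passed this filter, the last narrowly with a mean of 509 bp. Fbp1 and Fbp2 passed it only through their WT lengths, with window means of 215 and 88.7 bp in edKO hearts, against 1129 and 929 bp in WT hearts, so a difference was built into their entry and their values in this fit are descriptions. The Fbp2 window also took in an Fbp1 region, with 266 bp in edKO 6 and 329 bp in WT 3. With regions counted for 1 gene alone, Fbp2 had 0 bp in each edKO heart, and both genes were under the filter. Over all loci 15 were lower (0.105%) and 0 higher in edKO at an adjusted p of 0.05, with 663 lower and 283 higher at an unadjusted p under 0.05, and none of the 3 genes was among the 15. The 4 genes had been proposed with results of these data in view, so their p-values are not independent evidence.

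The Fbp2 window had a log2 difference of -1.97 (SE 0.56, limma adjusted p = 0.433) and the Fbp1 window -1.70 (SE 0.41, limma adjusted p = 0.282). Their windows overlap, and most of the Fbp1 difference is the Fbp2 start-site region counted a second time: the Fbp1 window held 379, 0 and 266 bp in edKO 1, 3 and 6, against 918, 1478 and 991 bp in WT 1, 3 and 4. A further fit, chosen after seeing the data, had no filter and assigned each region at the 4 genes to 1 of them. All other loci kept their window lengths, in which a region can count for several genes. In that fit the difference was -2.25 at Fbp2 (SE 0.36, limma adjusted p = 0.0941) and -0.12 at Fbp1 (SE 0.58, limma adjusted p = 0.973). The same fit gave -1.64 at Pck1 (SE 0.39, limma adjusted p = 0.287), but with every region counted for its nearest gene alone, however far within 100 kb, the Pck1 difference was -0.21 (SE 0.13, limma adjusted p = 0.829). At Pck2 the difference was -0.03 (SE 0.13, limma adjusted p = 0.963), from 3206, 2090 and 2540 bp in edKO 1, 3 and 6, against 3038, 2574 and 2836 bp in WT 1, 3 and 4. These values come from short called lengths at Pck1, Fbp1 and Fbp2, and folds on the log2(bp + 200) scale understate change at such loci.

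The loci most like each tested gene over the 6 hearts were found by the root mean square distance of the centred log2 values. For Pck2 they were Sall4 (distance 0.067) and Cr1l (0.072), for the Fbp1 window Ces1d (0.281) and Ccdc3 (0.428), and for the Fbp2 window Ntrk3 (0.375) and Chrna10 (0.449). Ces1d, a carboxylesterase gene, had 324, 0 and 304 bp in edKO 1, 3 and 6, against 967, 1023 and 1460 bp in WT 1, 3 and 4. Ntrk3, a neurotrophin receptor gene, had 0, 0 and 482 bp in edKO 1, 3 and 6, against 1133, 1438 and 982 bp in WT 1, 3 and 4. None of these 6 loci passed the threshold over all loci.

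Other genes of the pathway did not show a called difference. Of 78 genes in 5 lists around gluconeogenesis, 71 were tested and 0 passed in either direction with limma, with 4 lower and 0 higher at an unadjusted p under 0.05. Over all 14313 loci, 15 (0.105%) passed as lower and 0 as higher, with 663 lower and 283 higher at an unadjusted p under 0.05. The median log2 difference of the 71 genes was -0.002, against 0.03 over all loci tested. Of their estimates 52.1% were below 0, against 41.5% over all loci. On the centred scale the genotypes were separate at 8 of the 71, with edKO lower at 5 and higher at 3, where of all 14313 loci 5.76% were separate with edKO lower and 7.11% with edKO higher.

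Among the 21 genes for the remaining gluconeogenic steps (median 0.04, 7 estimates below 0), the mitochondrial alanine aminotransferase gene Gpt2 stood lowest. Called length at Gpt2 was 764, 0 and 1612 bp in edKO 1, 3 and 6, against 1737, 2300 and 2577 bp in WT 1, 3 and 4. The groups do not overlap, but the spread is wide (log2 difference -1.67, SE 0.64, limma adjusted p = 0.697). The glycerol channel gene Aqp7 had 5913 ± 1977 bp in edKO hearts and 7873 ± 1296 bp in WT hearts (SD, n = 3 each). G6pc, the catalytic subunit of glucose 6-phosphatase, had 2694 ± 378 bp in edKO hearts and 2417 ± 520 bp in WT hearts, and did not pass (log2 difference 0.24, SE 0.15). As at Pck2, such window lengths can include a neighbour's peak.

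The 11 tested enzymes shared with glycolysis had a median log2 difference of -0.03. Their smallest p-values were those of the aldolase gene Aldoc (log2 difference -0.57, SE 0.25), Gapdh (-0.20, SE 0.12) and the enolase gene Eno1 (-0.20, SE 0.14). The 12 tested genes of the opposing glycolytic steps had a median of -0.12, with 9 estimates below 0. That list holds the Pfkfb genes, whose enzymes set the level of fructose 2,6-bisphosphate, the inhibitor of fructose bisphosphatase. Of these Pfkfb1 had 1806, 1272 and 1502 bp in edKO 1, 3 and 6, against 2588, 1998 and 1861 bp in WT 1, 3 and 4 (log2 difference -0.36, SE 0.13, limma adjusted p = 0.684). Pfkfb2 stood at 0.11 (SE 0.11), Pfkfb3 at 0.09 (SE 0.17) and Pfkfb4 at -0.03 (SE 0.12). The platelet phosphofructokinase gene Pfkp stood at -0.23 (SE 0.14).

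Among 16 tested transcription regulators of gluconeogenesis (median 0.01), the glucocorticoid receptor gene Nr3c1 had 5367, 3747 and 4184 bp in edKO 1, 3 and 6, against 6777, 6507 and 6889 bp in WT 1, 3 and 4. Its groups do not overlap and its log2 difference was -0.51 (SE 0.12, limma adjusted p = 0.275). The coactivator gene Ppargc1b (-0.29, SE 0.10) and the orphan receptor gene Nr4a1 (0.14, SE 0.09) had the next smallest p-values. The 11 tested ATF4 targets and serine synthesis genes, a set to which Pck2 is often counted, had a median of -0.004, with Atf4 (0.30, SE 0.13), Psat1 (0.24, SE 0.13) and Mthfd2 (0.19, SE 0.13) first by p-value.

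**Figure D4:**
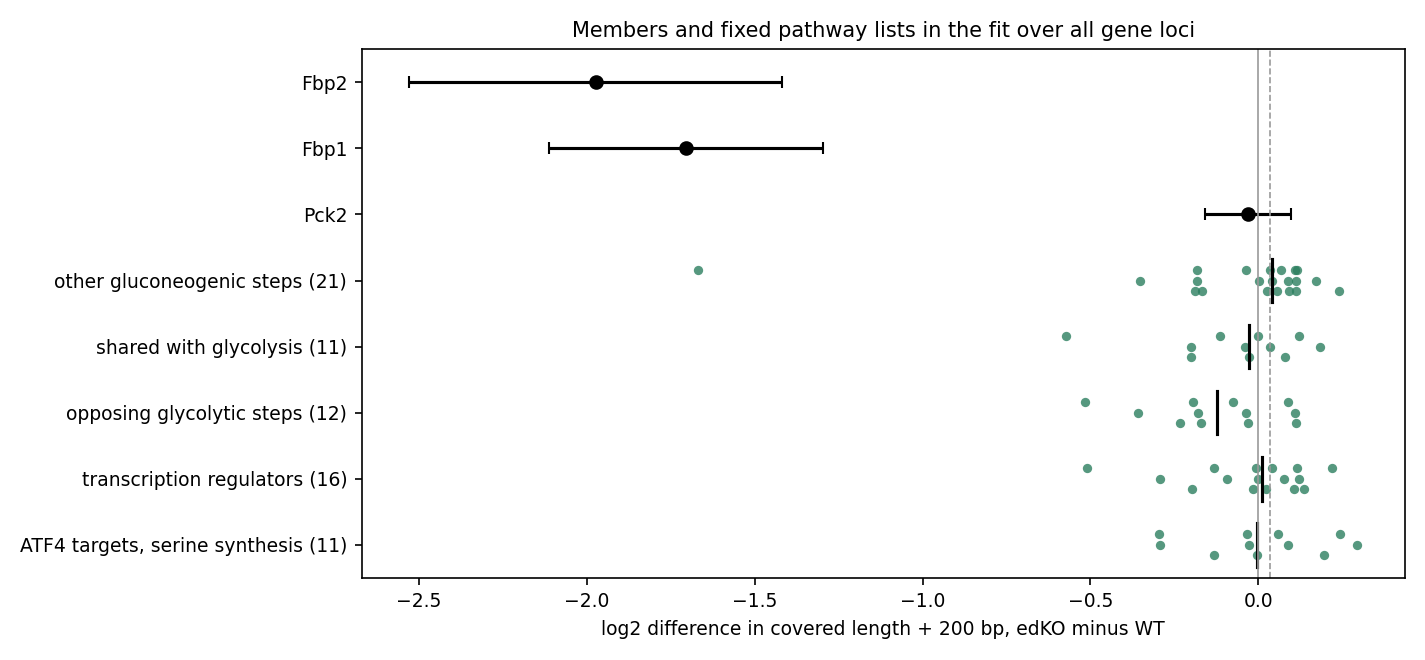
Log2 difference in called length plus 200 bp, edKO minus WT, for the 3 tested genes with their SE and for the genes of the 5 lists (points, with the list median as a black line and the number tested in brackets); the grey line is 0 and the dashed line the median of all loci, 0.03. The Fbp1 and Fbp2 windows, which share a region, lie at -1.70 and -1.97, and list medians lie between -0.12 and 0.04.

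Pck1 is strongly used in fat and liver and Fbp2 in skeletal muscle, so markers of those tissues were examined beside the WT-only regions. Over 9 adipocyte markers, summed called length was 14313 to 19997 bp in edKO hearts and 18019 to 20962 bp in WT hearts. Of these markers 5 were marked in all 6 hearts (Adipoq, Fabp4, Plin1, Cidec and Cidea), while Lep, Retn and Ucp1 were at 0 in all hearts. Cidea had 3130, 2838 and 3934 bp in edKO 1, 3 and 6, against 4776, 5135 and 5048 bp in WT 1, 3 and 4. Its groups do not overlap, as at 5.76% of all loci on the centred scale with edKO lower. Of the 5 tested adipocyte markers 2 had estimates below 0 and 0 passed (lowest limma adjusted p = 0.373). Over 13 skeletal muscle markers the sum was 20671 to 28769 bp in edKO hearts and 27628 to 29399 bp in WT hearts. Here 7 were marked in all 6 hearts (Ckm, Myh3, Tnnt3, Tnni2, Mylpf, Myog and Myf6), while Acta1, Myh1, Myh2, Myh4 and Myod1 were at 0 in all hearts. Over 8 hepatocyte markers the sum was 4843 to 9065 bp in edKO hearts and 6016 to 7988 bp in WT hearts. Here 3 were marked in all 6 hearts (Apoa2, Ttr and Fgb), while Alb, Tat and Cps1 were at 0 in all hearts. As at Pck2, a window can hold a neighbour's peak, so a marked window does not show that the gene itself is marked. The ranges of the summed lengths overlap between genotypes for each list. Of the 6 hearts edKO 3 was lowest in these 3 and in all others of the 9 marker lists examined except that of fibroblasts. Its list also covers the least of the genome, with 66.6, 47.9 and 62.6 Mb in edKO 1, 3 and 6, against 67.4, 68.3 and 59.1 Mb in WT 1, 3 and 4. The part of these tissues in the Pck1 and Fbp2 results was not tested.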

How the data were processed

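H3K27ac ChIP-seq lists of 3 edKO and 3 WT hearts were used. The labels name each list under both the ChIP and the input sample of a heart; inputs were not analysed separately. Per the submitters' processing notes the tools were MACS2, BWA, SAMtools and cutadapt (no versions) and the builds GRCm38 and mm10. How MACS2 was run, and with which control, is not given in the sources used here. Deposited by the authors was 1 narrowPeak list per heart, on mm10. Its deposited signal column is a fold enrichment, a ratio to background, and the deposited significance columns are −log10 p-value and −log10 q-value. These served to rank or filter regions within a list alone. Depth is unknown, so no counting interval is given.

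Entries with the same start and end were taken as 1 region, and regions of the 6 lists were joined at 1 bp overlap. Regions in overlapping windows went to whichever of the 4 genes was nearest to their midpoint. Other genes were not considered in this step, so the regions nearer to Dcaf11 were counted for Pck2. Genes and promoters came from RefSeq tables of GRCm38.p6. All genes of the lists were matched by current symbol, since older synonyms of Fbp1 and Fbp2 are swapped. No sequence beyond these promoters was used here. Limma 3.58.1 (R 4.3.3, with trend and robust estimation) compared called length per locus, on genotype without covariates, p-values being adjusted over all loci (Benjamini-Hochberg). They weigh the genotype difference against the spread between hearts, a spread that limma estimates partly from all loci. Each value was log2(bp + 200), centred per heart on the mean over loci covered in all 6 hearts. The code was checked on simulated data. Python 3.11.15, numpy 2.4.6, pandas 2.3.3 and matplotlib 3.10.9 were used.

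The members and lists were chosen with earlier results of these data known. Named genes are the 4 members, Rxra and Rxrb, the 3 tested genes of each pathway list with the smallest unadjusted p, and for each tested member the 2 loci nearest to it. A gene that this rule names is not reported here. Tissue markers at 0 and those marked in all hearts are named beside their list, and the other Pfkfb genes beside Pfkfb1. Alternatives changed the window, the lists, the scaling, the offset, the filter and the hearts.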

Additional observations from a re-analysis of the deposited data

How the results depend on the processing

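The 2 regions called in all WT and no edKO hearts were 1 (Pck1) when regions were joined only where they shared at least 50% of each, which leaves the split Fbp2 peaks apart, 0 with a -log10 q of at least 5 and 0 at equal list length (chosen after seeing the data). The 15 lower loci were 9 with the stricter lists, 6 at equal list length and 0 to 9 with 1 heart left out. Leaving out edKO 1 gave 7, edKO 3 gave 4, edKO 6 gave 9, WT 1 gave 2, WT 3 gave 0 and WT 4 gave 1. Higher loci numbered 0, except 1 without WT 1. With the replicate number as a block the count of lower loci was 90. The numbers are not known to pair hearts (correlation of deviations 0.179 for number 1 and 0.032 for number 3), and that fit leaves 1 residual degree of freedom. Its Pck2 difference was 0.077.

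The Pck2 difference, near 0 throughout, also changed sign with stricter lists (0.085) and ran from -0.13 to 0.028 with 1 heart left out. It was not called in any of 21 alternatives. Fbp1 stayed lower and uncalled in the 14 alternatives that held it (log2 difference -2.52 to -0.12, limma adjusted p from 0.136 to 0.973) and Fbp2 in 11 (-3.27 to -0.76, adjusted p from 0.0941 to 0.740). In the others they were under the filter, as Fbp2 was whenever a WT heart was left out. Wherever a filter was used, both genes entered through their WT lengths, so their lower values there were built in and are descriptions. Among the 14, only the fit that assigned regions once left the Fbp2 start-site region out of Fbp1, and it gave the -0.12. The causes of these changes were not tested. Lists without depth limit what can be said of regions this narrow.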

Other observations

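In all, 19 genes had a promoter call in every WT heart but not in any edKO heart, and they are named here after their values were seen. Beside Fbp2 they are Acot4, Art1, Ccdc116, Dennd1c, Dync2h1, F10, Gabrb2, Gdf15, H6pd, Icam4, Ifit1, Klhdc7a, Lage3, Plcb2, Plin5, Slc35f1, Ucp3 and Zrsr1. Over the whole locus, Acot4, an acyl-CoA thioesterase gene (log2 difference -3.59, limma adjusted p = 0.0169), and Art1, an ADP-ribosyltransferase gene (-1.04, limma adjusted p = 0.0432), were lower in edKO hearts. Of the others, 4 were too short to be tested and the rest, Fbp2 among them, did not pass. The mitochondrial uncoupling protein gene Ucp3 stood at -0.79 (limma adjusted p = 0.210), the lipid droplet gene Plin5 at -0.38 (limma adjusted p = 0.724) and H6pd, a source of NADPH in the endoplasmic reticulum, at -0.31 (limma adjusted p = 0.801). Lage3 (0.05) and Zrsr1 (0.09) had estimates above 0. No theme was tested in this set.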
